A study of Drosophila melanogaster with 13 samples.

Results

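The comparison described here sets the Pita antibody peaks of flies whose Pita lacks its ZAD domain against those of flies with wild-type Pita. The members were the 797 peaks of the PitaΔZ Pita list and the 1195 peaks of the Pitawt Pita list, which rest on 4 of the 13 libraries of the series. A Pitawt site was called kept when a PitaΔZ Pita peak overlapped it by at least 1 bp, and lost otherwise. PitaΔZ Pita peaks that met no Pitawt Pita peak were called outside peaks. Kept and lost are names for presence in a list and carry no test, since each line gave 1 list.

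Chromatin came from whole adult Drosophila melanogaster aged 2 to 3 days, with many animals ground together. The tested flies were labelled y1w1118; pita1attP PitadeltaZ and their counterparts pita1attP Pitawt, so both lines carried pita1attP. The labels put y1w1118 in the genotype of the first line only, and the names of the libraries carry FLAG for both. There were 2 Pita antibody libraries for each line. A single preimmune library, labelled as made from pita1attP Pitawt flies, was named as the background of both lists, so PitaΔZ had no background library of its own. Whole bodies mix all tissues, so fewer cells with a bound site and less binding per cell cannot be told apart. FLAG antibody lists of the same lines, with 685 peaks for PitaΔZ and 1792 for Pitawt, played no part in choosing the members and are used as a second readout.

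Pita is a Drosophila zinc-finger protein that binds DNA through its cluster of C2H2 fingers and works at insulators and domain boundaries, among them boundaries of the bithorax complex. Its ZAD, the zinc finger-associated domain at the amino end, is known as a surface through which such proteins form dimers, while the DNA-contacting fingers lie elsewhere in the protein. Pita is also known as a factor needed for expression of Orc4, a subunit gene of the origin recognition complex.

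Both lists held peaks of similar median width, while their ranges of fold and p differed. PitaΔZ Pita peaks had a median width of 760 bp (217 to 3265) and Pitawt Pita peaks one of 790 bp (252 to 2675). The authors' fold enrichment over background had a median of 14.5 in PitaΔZ (1.98 to 106) and of 12.4 in Pitawt (4.31 to 320). The peak caller's −log10 p went down to 5.42 in PitaΔZ and to 15.1 in Pitawt, so the PitaΔZ list reached weaker peaks. Folds and p-values are the authors' own and describe a peak within its list. Each list joined a pair of peak lists. The medians of −log10 p in each pair were 130 and 127 for PitaΔZ, and 80.2 and 40.4 for Pitawt. Read depth is unknown, and no difference between the lists has a replicate test.

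Of the 1195 Pitawt sites, 636 were kept and 559 were lost, a lost share of 46.8% (exact Clopper-Pearson 95% interval 43.9 to 49.7, counting error only, as for all intervals here). The 2 lists placed the kept sites at the same spot: in 635 one-to-one pairs the summits lay a median of 14 bp apart (quartiles 6 and 27.5), and 95.4% were within 100 bp. In 7 pairs the summits were over 500 bp apart, and the farthest were 2046 bp apart. The PitaΔZ peak covered a median of 84.1% of the Pitawt peak.

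The lost sites were of 2 kinds by the FLAG readout. The PitaΔZ FLAG list held 29 of the 559 (5.19%, 3.50 to 7.37), and 530 were in neither PitaΔZ list. Of the kept sites it held 566 (89.0%, 86.3 to 91.3). The 29 had a median Pitawt Pita fold of 65.1 and the 530 a median of 8.48, against 17.3 for the kept sites. By either PitaΔZ antibody, 665 of the 1195 sites were called (55.6%, 52.8 to 58.5).

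Most of the 29 sites were strong in the Pitawt list, 21 of them in its strongest 239 by fold, but their folds ran down to 6.37. They made up 5 of its strongest 10 sites by p and 13 of its strongest 50, and the other 5 of those 10 were kept. The strongest was the site 83 bp from the end of CG34130 (3R, 26187948 to 26189838 in dm6), with a Pitawt Pita fold of 320 (rank 1 of 1195). In PitaΔZ FLAG it had a fold of 370 (rank 3 of 685). Rala, a small GTPase gene, had its site 162 bp from the gene end (X, 3719280 to 3720697), with 380 in PitaΔZ FLAG (rank 2) and 281 in Pitawt Pita (rank 2). At ATPsynC, a gene for part of the mitochondrial ATP synthase, the values were 283 in PitaΔZ FLAG (rank 4) and 226 in Pitawt Pita (rank 3). All 3 summits lay between genes at a gene end.

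The same held for cindr, which encodes an adaptor protein of the CIN85 family. It led the PitaΔZ FLAG list by p (fold 363, rank 1) and had 160 in Pitawt Pita (rank 8). Socs36E, a regulator of JAK/STAT signalling, had 329 in PitaΔZ FLAG (rank 5) and 132 in Pitawt Pita (rank 26). Men-b, which encodes a malic enzyme, had 258 (rank 9) and 157 (rank 16) in those lists. At sfl, a heparan sulfate sulfotransferase gene, they were 194 (rank 19) and 191 (rank 11), and at Tmhs 147 (rank 38) and 220 (rank 6). Sites such as these were missing from the PitaΔZ Pita list while the FLAG list of the same line held them among its strongest peaks.

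The IDR column and the joined p-values differed in how they set the top of the PitaΔZ list. The joined lists carry an irreproducible discovery rate (IDR), a measure of how well a pair of lists ranks a peak alike, and a higher −log10 IDR means better accord. The strongest 20 PitaΔZ Pita peaks had a −log10 IDR of 2.24 to 2.70, below the list's median of 2.91 and near its lowest value of 2.02. No PitaΔZ peak exceeded 2.99. The strongest 20 Pitawt Pita peaks had 4.72 to 5, the highest value in that list. By the p-values themselves the joined lists were closer in PitaΔZ, where their Spearman correlation over 797 peaks was 0.993, against 0.872 over 1195 peaks in Pitawt. The highest −log10 p was 1647 in PitaΔZ Pita, while PitaΔZ FLAG had 36 peaks above that, of which 16 met a PitaΔZ Pita peak. Whether the 29 sites were dropped when the lists were joined was not tested, and they are kept apart from the other lost sites here.

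The kept share followed the strength of the site in the wild type. Strength itself decides whether a peak is called, and whether the deletion shaped this order was not tested. The Pitawt list was divided by fold into quintiles of 239 sites each. In the strongest, with folds of 28.6 to 320, 191 of 239 sites were kept (79.9%, 74.3 to 84.8). The next quintiles kept 72.0% (65.8 to 77.6), 53.6% (47.0 to 60.0) and 38.9% (32.7 to 45.4). The weakest quintile, with folds of 4.31 to 7.23, kept 52 of 239 (21.8%, 16.7 to 27.5). Of the 29 sites found with FLAG, 21 were in the strongest quintile, where either antibody called 88.7% (84.0 to 92.4). Fold in Pitawt FLAG, which the choice of members did not use, gave a like order for the sites that list held, with 84.6% kept in each of its first 2 quintiles, then 57.7%, 33.3% and 11.1%.

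**Figure D1:**
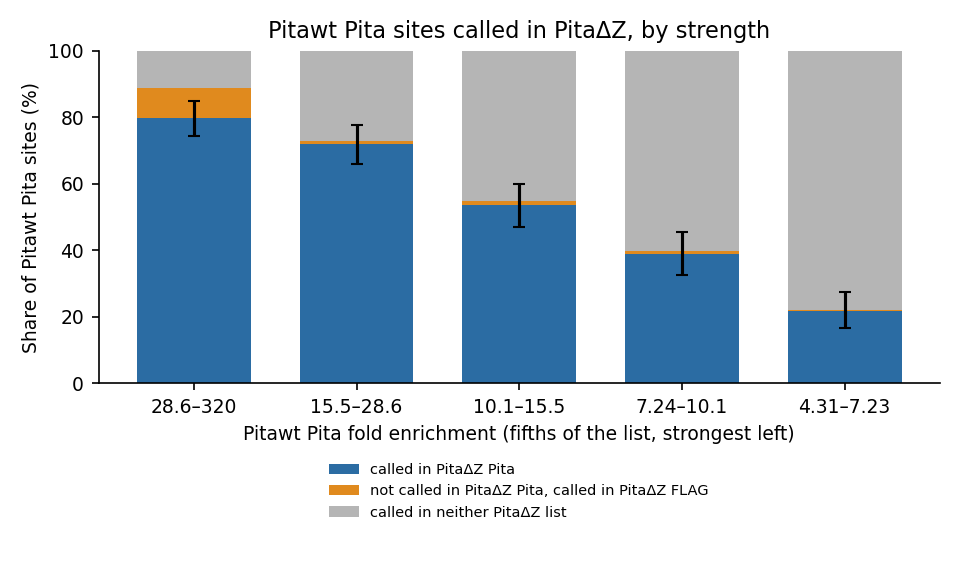
Share of the 1195 Pitawt Pita sites (y axis, percent) in each quintile of Pitawt Pita fold enrichment (x axis, 239 sites each). Blue sites were called in PitaΔZ Pita, orange ones in PitaΔZ FLAG only and grey ones in neither, and bars show the exact 95% interval of the blue share, which goes from 79.9% in the strongest quintile to 21.8% in the weakest.

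The strongest kept sites were a mix of gene ends and gene bodies. The highest Pitawt fold among them lay inside nemy, a cytochrome b561 family gene (2R, 12664929 to 12667194), with 61.4 in PitaΔZ (rank 65 of 797) and 202 in Pitawt (rank 9 of 1195). The site inside the Hox gene Abd-B (3R, 16969369 to 16970654) had 77.0 in PitaΔZ (rank 28) and 188 in Pitawt (rank 13). At fzr, which activates the anaphase-promoting complex, the summit lay 126 bp from the gene end (X, 4666590 to 4667426) and the folds were 72.7 (rank 37) and 177 (rank 15). A site inside Hr4, a nuclear receptor gene of the ecdysone response (X, 1952327 to 1954833), had 79.1 in PitaΔZ (rank 3) and 162 in Pitawt (rank 7). The site inside CG2121 had 53.8 (rank 64) and 130 (rank 12). These 5 sites were near the top of both lists. At Hr4 and CG2121 the Pitawt summits lay 502 and 503 bp from a gene end, and the PitaΔZ summits 496 and 452 bp. With the 500 bp limit used below, both count as inside a gene by the Pitawt summit only.

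Another 3 of the 8 strongest kept sites were much lower in the PitaΔZ order. AGO2, the Argonaute of RNA interference, had a summit 288 bp from its end (3L, 15554038 to 15554666) with 16.1 in PitaΔZ (rank 369) and 154 in Pitawt (rank 10). The Wnt receptor gene fz2 had 17.2 (rank 371) and 138 (rank 20). A site inside bves had 10.8 (rank 432) and 131 (rank 14). PitaΔZ FLAG placed these 3 at ranks 329, 376 and 352 of 685.

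At the weak end, the 5 lowest kept sites on named chromosomes were those at CG30105, CG32486, Syn2 and CG15544 and inside Svil, with folds of 3.19 to 9.97 in PitaΔZ and 5.15 to 5.27 in Pitawt. The summits at CG15544 lay 418 bp apart in the paired peaks.

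The strongest sites absent from both PitaΔZ lists lay mostly inside genes. The highest was inside brwl, with Mtpalpha 1955 bp away (2L, 9570759 to 9572164), and had a Pitawt Pita fold of 71.0, at rank 39 of 1195. The next lay inside the Hox gene pb (3R, 6708200 to 6710178), with a fold of 51.8 (rank 131), followed by one between genes, 585 bp from lncRNA:CR45966, with 50.1 (rank 49). The site 438 bp from the end of rho-6, a rhomboid family gene, had 48.1 (rank 71). Those inside CG7741, inside the dynein light chain gene ctp, inside the heat shock gene Hsp68 and inside the fucosyltransferase gene FucTA had folds of 47.5, 44.7, 41.5 and 41.5. Of these 8 summits, 6 were inside a gene and over 500 bp from any gene end. The weakest sites of this kind, at CG11883, CCKLR-17D1, CG11537, Vti1b and CG5569, had Pitawt folds of 4.34 to 4.48.

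The wild type called most of the lost sites with its other antibody too. Pitawt FLAG held 506 of the 530 (95.5%, 93.3 to 97.1) and 635 of the 636 kept sites (99.8%, 99.1 to 100.0). In the PitaZ276 line, named for the ZAD-like domain of human ZFP276, the FLAG list held 216 of the 530 (40.8%, 36.5 to 45.1) and 632 of the 636 kept sites (99.4%, 98.4 to 99.8). The Pita antibody list of that line, with 492 peaks in all, held 24 of the 530 (4.53%, 2.92 to 6.66) and 404 of the 636 (63.5%, 59.6 to 67.3).

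Kept and lost sites differed in where they lay. Summits were divided into those within 500 bp of either end of a RefSeq gene, those farther away inside a gene, and those between genes. Of 633 kept sites on the named chromosomes, 70.1% (66.4 to 73.7) were near a gene end and 20.7% (17.6 to 24.1) inside a gene. Of the 527 sites absent from both PitaΔZ lists, 39.7% (35.5 to 44.0) were near a gene end and 49.1% (44.8 to 53.5) inside a gene. The 29 sites found with FLAG were near a gene end in 26 cases. The median distance from a summit to the nearest gene end was 146 bp for kept sites (quartiles 64 and 663) and 728 bp for all 556 lost sites (268 and 2410). Ends of 2 or more genes lay within 500 bp of 39.5% of kept sites (35.7 to 43.4) and 18.98% of the 527 (15.7 to 22.6).

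**Figure D2:**
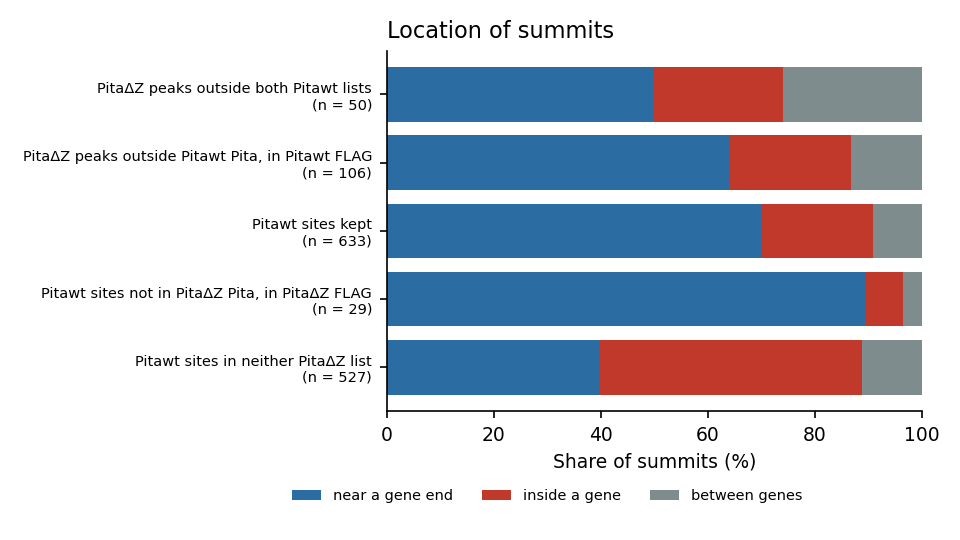
Share of summits (x axis, percent) near a gene end (within 500 bp), inside a gene and between genes, for PitaΔZ Pita peaks outside the Pitawt lists and for Pitawt Pita sites that were kept, found with FLAG alone or absent from both PitaΔZ lists. Near-end summits made up 70.1% of the kept sites and 39.7% of the sites absent from both lists.

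Because sites inside genes were also weaker, with a median Pitawt fold of 10.5 against 14.0 near gene ends, the shares were set side by side within the quintiles of strength. In the strongest quintile the kept share was 83.5% near gene ends (76.8 to 89.0) and 71.0% inside genes (58.1 to 81.8), with overlapping intervals. In the second quintile it was 83.6% (76.7 to 89.1) near gene ends and 48.3% (35.2 to 61.6) inside genes. In the middle quintile it was 66.4% (57.6 to 74.4) and 31.8% (22.1 to 42.8). So far the share near gene ends was the higher in each quintile. The fourth had 50.8% (41.7 to 59.9) and 23.9% (15.4 to 34.1), and the weakest 30.7% (22.4 to 40.0) and 10.3% (5.06 to 18.1). In these 4 quintiles the intervals did not overlap. Sites between genes were few, 17 to 27 per quintile, and their intervals overlapped those of near-end sites in every quintile.

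**Figure D3:**
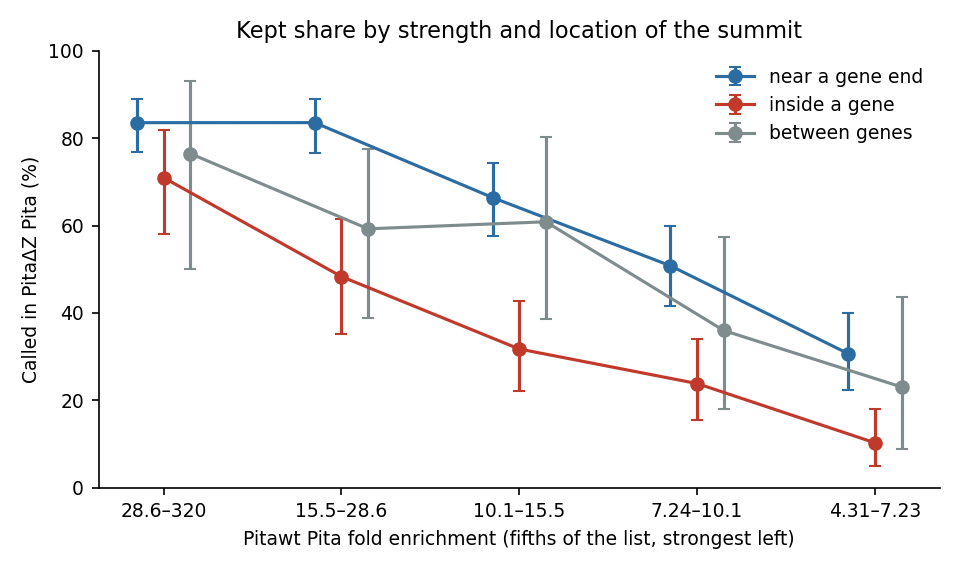
Kept share of Pitawt Pita sites (y axis, percent called in PitaΔZ Pita) by quintile of Pitawt Pita fold (x axis, strongest left) for summits near a gene end, inside a gene and between genes. Points are shares and bars exact 95% intervals, and near-end sites lie above inside-gene sites in all 5 quintiles, with overlapping bars in the strongest.

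The PitaΔZ FLAG list gave the same order of locations for the same Pitawt Pita sites. It held 63.6% of near-end sites (59.9 to 67.2), 27.8% of those inside genes (23.4 to 32.5) and 43.2% of those between genes (34.1 to 52.7). In the strongest quintile, where most of the sites found with FLAG alone lay, it held 94.9% near gene ends (90.3 to 97.8) and 66.1% inside genes (53.0 to 77.7). In the weakest quintile it held 23.7% (16.2 to 32.6) and 4.12% (1.13 to 10.2). The intervals of these 2 locations did not overlap in any of the 5 quintiles. Both PitaΔZ lists were set against the same preimmune library.

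The share by chromosome lay between 47.2% on 3L (40.6 to 53.8) and 61.4% on X (54.9 to 67.7) among the 5 large arms. Those 2 intervals do not overlap, but they belong to the lowest and highest of the 5 arms. The intervals of the other arms overlap both, and no difference between arms was tested. The median Pitawt fold was 12.2 on 3L and 14.1 on X. Chromosome 4 had 7 sites, of which 3 were kept. Lost sites were not close neighbours of kept ones as a rule. The median distance from a lost site to the nearest kept site was 55.4 kb, and 6.83% lay within 5 kb of one. From a kept site to the next kept site it was 51.6 kb, with 6.48% within 5 kb.

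Some genes held sites of both kinds. Of 67 genes with 2 or more Pitawt summits inside them, 14 had only kept ones, 27 had only lost ones and 26 had both. These counts are to be read beside the kept share of 53.2% over all Pitawt sites. Over sites inside a gene and more than 500 bp from any gene end it was 33.4%. Whether the division by gene departs from such shares was not tested, so it is not read as a trait of the genes. Svil, which encodes a supervillin family protein, had 3 kept and 1 lost. The spectraplakin gene shot and the gene mtd each had 1 kept and 2 lost, and tyn had 3 lost. Abd-B and the Hox gene Antp each had 2 kept summits. Overlapping genes can share a summit in these counts.

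Within the kept sites the order differed between the lines. To compare lists of unequal length, the 635 pairs were ranked among themselves by −log10 p in each list. Across these sites the ranks had a Spearman correlation of 0.461, a description of sites that share the background library. As many as 46.5% of the pairs (295 of 635) differed by more than 127 places, a width of 1 quintile of the ranks. Of these, 151 stood higher in PitaΔZ and 144 lower. In the second joined lists, 116 of the 151 and 117 of the 144 also differed by more than 127 places in the same direction, and 10 of the 295 stood the opposite way there, by any number of places. Of the first 100 sites in each line, 42 were shared.

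**Figure D4:**
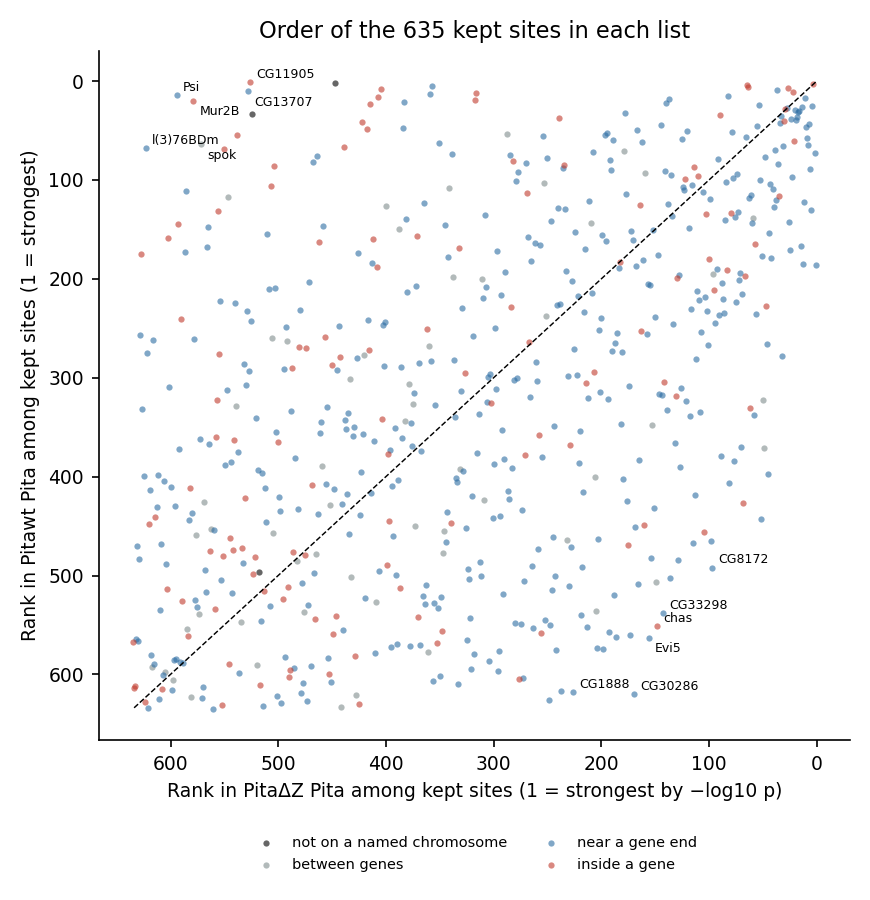
Rank of each of the 635 kept sites in PitaΔZ Pita (x axis) and in Pitawt Pita (y axis), 1 being the strongest by −log10 p, with the location of the summit in colour and equal ranks on the dashed line. The named sites are the 6 that stood highest and the 6 that stood lowest in PitaΔZ relative to Pitawt.

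Sites that stood higher in PitaΔZ lay mostly at gene ends, as did kept sites in general. Of the 151, 80.1% (72.9 to 86.2) were near a gene end and 12.6% (7.75 to 18.95) inside a gene. Of the 142 on named chromosomes that stood lower, 59.9% (51.3 to 68.0) were near a gene end and 30.3% (22.9 to 38.5) inside a gene. For the other 339 pairs the shares were 69.9% (64.7 to 74.7) and 20.4% (16.2 to 25.0). The PitaΔZ FLAG list held all 151 sites that stood higher and 80.3% of the 142 that stood lower (72.8 to 86.5). It held 87.6% of the other 339 pairs on named chromosomes (83.6 to 90.9). The classes were cut partly on PitaΔZ Pita rank, so these shares are not independent of strength in that line. A site low in the Pitawt order has more room to stand higher in PitaΔZ, and the median Pitawt rank was 486 for the 151 and 200.5 for the 142.

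The site that moved furthest up lay inside Egfr, the epidermal growth factor receptor gene, 160 bp from the end of CG30286 (2R, 21535420 to 21536546). It had rank 170 of 635 in PitaΔZ (fold 36.2) and rank 620 in Pitawt (6.25). Its −log10 p in the joined lists was 438 and 437 in PitaΔZ, and 23.5 and 24.1 in Pitawt. At Evi5, a Rab GTPase-activating protein gene, the site had rank 156 in PitaΔZ (41.6) and 563 in Pitawt (8.83). Inside chas the ranks were 148 (43.0) and 551 (9.27), at CG33298 143 (43.5) and 538 (9.56), and at CG8172 97 (35.7) and 492 (8.69). The sixth lay 134 bp from CG1888 and within 500 bp of an end of brp, a scaffold gene of synaptic active zones, with rank 226 in PitaΔZ (31.4) and 618 in Pitawt (6.62). In PitaΔZ FLAG these 6 sites had folds of 35.8 to 61.1.

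The sites that moved furthest down had been among the strongest in the wild type. The summit at Psi, a splicing regulator gene, 490 bp from the gene end (2R, 16866619 to 16867881), had rank 594 in PitaΔZ (fold 2.70) and rank 14 in Pitawt (71.7). Its −log10 p was 12.3 and 17.5 in the joined PitaΔZ lists, and 1811 and 531 in those of Pitawt. A site inside the mucin-related gene Mur2B had rank 579 in PitaΔZ (3.87) and 20 in Pitawt (83.9), and was not called in PitaΔZ FLAG. The site inside CG11905 (3L, 16929352 to 16931775) had rank 526 in PitaΔZ (4.23) and led the kept sites in Pitawt (118). At CG13707 the ranks were 528 (5.52) and 10 (127), at l(3)76BDm 623 (2.75) and 68 (47.6), and at a site between genes, 19852 bp from spok, 572 (4.54) and 64 (57.7). In all 6 pairs the summits were within 23 bp of each other.

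By −log10 p, the PitaΔZ Pita list was led by a site between RpS28a, a gene of the small ribosomal subunit, and Axn. The latter encodes the Wnt pathway scaffold Axin. The PitaΔZ summit lay nearest to Axn, at 95 bp, and the Pitawt summit nearest to RpS28a, at 96 bp. The site (3R, 30022340 to 30023229) had a fold of 64.8 at rank 1 of 797 in PitaΔZ and a fold of 22.0 at rank 230 of 1195 in Pitawt. The −log10 p was 1647 and 1661 in the joined PitaΔZ lists, and 271 and 99.6 in those of Pitawt. By fold, other PitaΔZ Pita peaks stood above this site, among them the one at CG31021 with 106. Of the 36 PitaΔZ FLAG peaks with a −log10 p above 1647, only 16 met a PitaΔZ Pita peak, so this list lacked some stronger sites.

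Ribosomal protein genes were reached mostly by kept sites. A gene counted as reached when a summit was 500 bp or less from either of its ends. Kept summits reached 18 of the 93 ribosomal protein genes and 4.00% of all 17684 genes. Lost summits reached 2 of the 93 and 2.04% of all genes. Ribosomal protein genes reached in the wild type were mostly at kept sites. Both lost ones belonged to the sites absent from both PitaΔZ lists, which reached 1.79% of all genes, and the sites found with FLAG alone reached none of the 93 and 0.254% of all genes. Outside peaks reached 4 of the 93 and 0.837% of all genes. As whole lists, PitaΔZ Pita reached 22 of the 93 and 4.87% of all genes, and Pitawt Pita 20 of the 93 and 6.01% of all genes. Of 21 Pitawt sites at these genes, 19 were kept, beside 444 of the 679 sites near the end of any gene (65.4%). That baseline is not matched for strength. Near-end sites were kept at 83.5% and 83.6% in the 2 strongest quintiles of Pitawt fold and at 30.7% in the weakest. RpL22 had folds of 61.9 in PitaΔZ and 67.1 in Pitawt, RpS15Aa 32.9 and 61.1, RpL30 64.2 and 46.4, and RpS14a 67.8 and 31.3. Among the 19 kept sites, 13 stood higher in the PitaΔZ order and 6 lower. The 443 near-end pairs divided into 248 and 194, and all 635 pairs into 327 and 305. The median rank of the 19 was 141 in PitaΔZ and 186 in Pitawt, against 280 and 313 for the near-end pairs. The lost sites were at RpS10b (Pitawt fold 9.42) and RpS26 (7.83), and the outside peaks at RpL26 (9.96), RpLP2 (7.66), RpS3 (5.25) and RpL37-1 (5.00), as folds in PitaΔZ.

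Other gene lists had few sites, and their reached genes are to be read beside the 4.00% of all genes reached by kept summits and the 2.04% reached by lost ones. Kept summits reached 6 of 73 mitochondrial ribosomal protein genes (8.22%), 5 of 91 oxidative phosphorylation genes (5.49%), 3 of 48 proteasome genes (6.25%) and 6 of 54 translation factor genes (11.1%). Lost summits reached 1, 2, 3 and 2 genes of these lists in the same order. With counts this small none is set apart from all genes here. Mitochondrial ribosomal protein genes had 6 kept sites, led by mRpL13 (85.1 in PitaΔZ, 70.1 in Pitawt), and 1 of the sites found with FLAG alone. Oxidative phosphorylation genes had 5 kept sites, such as UQCR-Q of respiratory complex III (73.7 and 61.3), besides ATPsynC and a lost site at ND-15 (Pitawt fold 7.65). Proteasome genes had 3 kept sites, led by Prosbeta2R2 (61.2 in PitaΔZ, 32.6 in Pitawt), and 3 lost ones, led by Rpt3R (31.3). Translation factor genes had 6 kept sites, led by eIF4G2 (37.3 and 41.2), and lost sites at eIF3c (7.41) and eIF4H1 (6.97). Kept sites lay at Orc4 and dup among 16 replication origin genes, at trx and Pc among 19 Polycomb and trithorax genes, and at zf30C among 20 insulator protein genes. Single kept sites lay at Mlc1 among 11 muscle genes, brp among 8 neuronal genes and osk among 9 germline genes. None of the 8 Hox genes or the 16 fat body or gut genes was reached by a kept, lost or outside summit, but at the shares of all genes (4.00%, 2.04% and 0.837%) few or none would be. Within 1000 bp, an outside peak reached 1 of the 8 Hox genes.

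In the bithorax complex, a pair of kept sites stood in opposite order in the lines. Between abd-A and Abd-B, the site on the abd-A side, inside lncRNA:iab8 (3R, 16868503 to 16869645), had rank 68 of 635 in PitaΔZ and 427 in Pitawt. The site nearer Abd-B (3R, 16898343 to 16900045) had rank 439 in PitaΔZ and 67 in Pitawt. Their −log10 p in the joined lists was 811 and 869 against 68.7 and 73.4 in PitaΔZ. In Pitawt it was 78.0 and 59.2 against 613 and 265. The ranks rest on the first joined list of each line, and the second gave the same order of these sites. Another Pitawt site there (3R, 16843290 to 16843618, fold 8.13) was in neither PitaΔZ list. Inside Abd-B a weaker second site had 5.53 in PitaΔZ and 11.9 in Pitawt. An outside peak near Ubx, close to an end of modSP, had a PitaΔZ fold of 12.8. At Orc4 the kept site, 26 bp from the gene end, had rank 172 in PitaΔZ and 152 in Pitawt, and the site inside pita itself had 582 and 412.

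The PitaΔZ list held 161 outside peaks, 20.2% of its 797 (17.5 to 23.2). Pitawt FLAG met 107 of them (66.5%, 58.6 to 73.7), and 54 met neither Pitawt list. They were weak within the PitaΔZ list. The median PitaΔZ fold was 7.44 for the 107 (1.98 to 30.9) and 3.95 for the 54 (2.12 to 20.1), against 19.1 for the 636 shared peaks (2.44 to 106). The strongest of the 107 was at rank 182 of 797 and the strongest of the 54 at rank 343. As many as 50 of the 161 had a −log10 p below 15.1, the lowest value in the Pitawt Pita list, and so did 50 of the 636 shared peaks. Among the 54 this applied to 28.

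**Figure D5:**
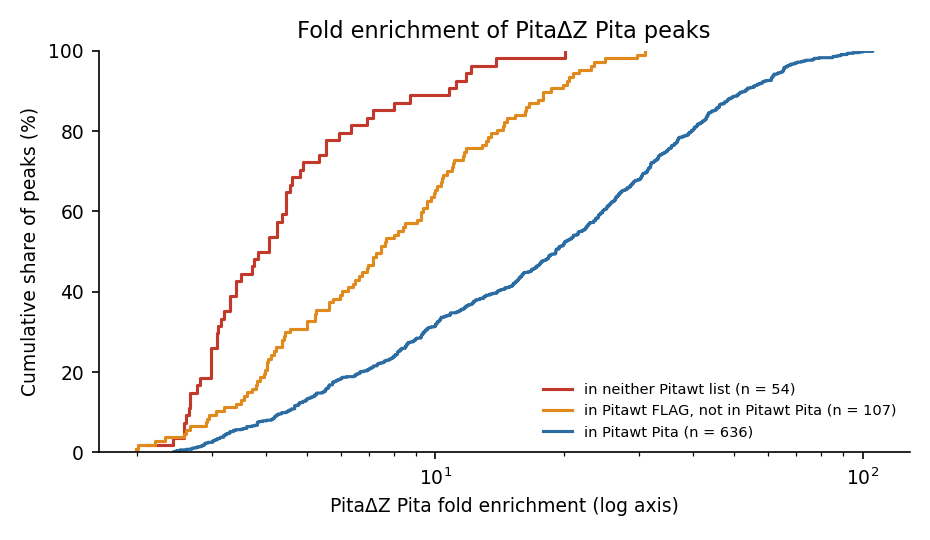
Cumulative share (y axis, percent) of PitaΔZ Pita peaks up to a given fold enrichment (x axis, log scale), for peaks in neither Pitawt list (54), in Pitawt FLAG and not Pitawt Pita (107) and in Pitawt Pita (636). The medians are 3.95, 7.44 and 19.1.

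The outside peaks that Pitawt FLAG also held were again mostly at gene ends, at 64.2% of 106 on named chromosomes (54.3 to 73.2). That is near the share of all 789 PitaΔZ Pita peaks there, 68.4% (65.1 to 71.7). Of the outside peaks in Pitawt FLAG, 71.0% (61.5 to 79.4) were called in PitaΔZ FLAG. The highest fold, 30.9 in PitaΔZ Pita (rank 230 of 797), lay 250 bp from Gem3, an RNA helicase gene of the SMN complex (3L, 10462060 to 10463635). The peak at wdp (2R, 22297662 to 22298638) had 29.7 (rank 182). SmD1, a core protein gene of spliceosomal snRNPs, had 24.9, and sli, which encodes the axon guidance ligand Slit, had 23.5. Peaks 1619 bp from NijA, inside CG42671, at Fancd2, a Fanconi anaemia pathway gene, and inside nuf had 23.1, 21.7, 21.0 and 20.5. All 8 were called in PitaΔZ FLAG, with folds of 19.3 to 35.9. Their Pitawt FLAG ranks were 758 to 1281 of 1792.

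The 54 peaks in neither Pitawt list lay in all 3 kinds of place. Of 50 on named chromosomes, 25 were near a gene end, 12 inside a gene and 13 between genes, and 17 of the 54 (31.5%, 19.5 to 45.6) were called in PitaΔZ FLAG. The strongest lay inside CG31886 (2L, 8957674 to 8958587), with a fold of 20.1 and a −log10 p of 179 and 206 in the joined lists. The next was 225 bp from stai, the stathmin gene, with 13.9. The peak 805 bp from the glue protein gene Sgs3 had 12.1, and that at bark, which encodes a protein of tricellular junctions, had 11.8. Those at FRG1, at the kinase gene msn, at CG31810 and inside mtt had 11.2, 10.7, 8.72 and 7.98. Apart from the one at CG31810, these 8 peaks were also in the PitaΔZ FLAG list, and apart from the one at CG31886 they were also in the FLAG list of the ZFP276 line.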

How the data were processed

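Whole-body ChIP-seq was compared between PitaΔZ and Pitawt with the Pita antibody. The submitters' processing notes name dm6 as the build, and list MACS2, Bowtie2, deepTools, cutadapt, bedtools and Picard without versions. The deposited lists have 20 columns and no header. Their layout is that of a pair of joined lists, with coordinates those of the first. Column 7 was read as the authors' fold enrichment (a ratio), columns 8 and 9 as the deposited −log10 p and q-value, and column 12 as the −log10 IDR. The −log10 p of column 8 had the same median, quartiles and range as that of the first joined list in both lines. Which library stood behind which joined list is not given, so these were not treated as replicates.

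Exact Clopper-Pearson intervals came from scipy 1.17.1, overlaps and ranks from pandas 2.3.3 and numpy 2.4.6 under Python 3.11.15, and figures from matplotlib 3.10.9. Tested on simulated data from 1189 Pitawt Pita peaks, the overlap code found 100% of planted overlaps, and at most 0.185% of unplanted ones were called. The planted copies were shifted by less than the narrowest peak's width, so each had to overlap. The test therefore checks the code and not the overlap rule. Genes came from the RefSeq Release 6 table, which gives no strand or exons. No sequence was used here, so a planned search of promoter words was not run.

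Members and gene lists were chosen with earlier results of these data known. Named sites were, by nearest gene end, the 8 with the highest fold per class, the 5 weakest kept and lost, the 6 largest rank changes each way, up to 4 sites per gene list, and sites near fixed genes. Genes with several sites, and any further site named from a gene list, were chosen after their values were seen.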

Additional observations from a re-analysis of the deposited data

How the results depend on the processing

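No paired analysis was possible because each line gave 1 joined list with no values per library, and for the same reason no replicate could be left out. The kept share of Pitawt sites, 53.2%, was 42.6% with 50% reciprocal overlap, 49.6% at −log10 q of at least 10, 62.5% at −log10 IDR of at least 2, 49.0% at a fold of at least 4 and 65.6% with equal list lengths. The outside share, 20.2%, was 36.1%, 16.9%, 28.0%, 16.0% and 34.4% in that order, 23.8% with summits within 100 bp and 15.9% when PitaΔZ peaks had to reach the lowest Pitawt p, an alternative chosen after seeing the data. The share of lost sites met by PitaΔZ FLAG, 5.19%, was 9.33% with reciprocal overlap, 7.85% with the IDR limit and 9.85% with equal lengths. The share of outside peaks met by Pitawt FLAG, 66.5%, was 36.8% with reciprocal overlap, 42.1% by summits, 76.0% with the q limit, 75.3% with the IDR limit, 75.9% with the fold limit and 79.9% with equal lengths. The strongest quintile kept 61.9% with reciprocal overlap and 86.2% when ranked by the second joined list. The weakest quintile kept 39.7% with the IDR limit, 15.9% with the fold limit, 41.3% with equal lengths, 15.5% ranked by the second joined list and 11.1% ranked by Pitawt FLAG, and the last 2 rankings were chosen after seeing the data. The strongest quintile kept more than the weakest under every alternative run. For near-end windows of 200 and 1000 bp, the shares were 55.1% and 79.3% of kept, 19.2% and 57.6% of lost and 32.7% and 69.2% of outside summits, as wider windows hold more. Listed genes reached numbered 28 for kept sites at 200 bp against 46, and 6 and 16 for lost sites at 200 and 1000 bp against 10. With those windows, 76.5% and 61.1% of near-end sites were kept, and 31.3% and 33.7% of those inside genes. Sites over 127 places of rank apart numbered 289 to 313 under other rankings. The limits on q of 10 and fold of 4 cut the PitaΔZ list only, to 714 and 698 peaks, so there the kept share could only fall. The IDR limit and equal lengths cut the Pitawt list only, to 918 and 797 sites, so there the outside share could only rise. For the other values that moved, the cause was not tested. Unknown depth limits every comparison of list membership.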
